A study of Mus musculus with 18 samples.

Results

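The Wnt pathway loci described here are the accessible chromatin regions at 10 genes of Wnt signaling in lung endothelial cells (ECs): the receptors Fzd4, Fzd6, Lrp5 and Lrp6, the secreted factors Wnt11 and Rspo3, the DNA-binding factors Lef1 and Tcf7l2, and the feedback and inhibitor genes Axin2 and Apcdd1. Peaks on chromosomes 1 to 19, X and Y that overlapped by at least 1 bp were merged over the 18 samples, and a region was kept when at least 2 samples had a peak in it. A region belonged to a gene when its midpoint lay nearest to a RefSeq transcription start site (TSS) of that gene, or within its gene body. This rule used no difference between the groups, and it gave 64 regions of 47338 in all. A region is named by its gene and by the distance in bp from its midpoint to the nearest TSS of the gene, negative upstream and positive downstream, so that Rspo3 +24228 lies 24228 bp into the gene.

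Accessibility was measured by Omni ATAC-seq, in which the transposase Tn5 inserts adapters into open chromatin of sorted ECs, 1 mouse per sample. The 4 groups were Young Sham (5 mice, 2 months old, no bleomycin), Young Bleo (4 mice, 2 months old, 1 U/kg bleomycin), Aged Sham (4 mice, 18 months old, no bleomycin) and Aged Bleo (5 mice, 18 months old, 1 U/kg bleomycin), and the lungs were taken at day 30. Bleomycin is a DNA-damaging drug that injures the lung and leads to fibrosis, and the sham mice received saline by the same intratracheal route. All mice were FVB animals that carried a Col1α1-GFP reporter, which marks collagen-producing cells; the sorted ECs were CD31 positive and negative for CD45, EpCAM and GFP. The design asked how age, injury and both together changed the open chromatin of these cells.

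In Wnt signaling, secreted Wnt ligands bind a Frizzled receptor and its coreceptor Lrp5 or Lrp6 at the cell surface. In the canonical branch this protects β-catenin from destruction, and β-catenin enters the nucleus and acts with the TCF/LEF factors on target genes such as Axin2, whose product in turn restrains the pathway. R-spondins such as Rspo3, which ECs themselves secrete, keep Frizzled and Lrp receptors at the membrane, and signaling through Fzd4 is best known in vessels of the retina and brain, where it builds the blood barrier.

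The sequences on which the results turn are printed here from RefSeq's GRCm38.p6 assembly (mm10), plus strand, 5′ to 3′, as the 200 bases around the strongest summit of each region. Capitals mark a match, on either strand, to the TCF/LEF core, which is spelled CTTTGAT, or to the core of the ETS family. The latter core is spelled CAGGAAG. Rspo3 +24228, Wnt11 -48013, Fzd6 +17021 and Lef1 -164082 had a peak in most Young Sham mice and in no mouse of at least 1 other group. Lrp6 -37 passed the main test of strength in Aged Bleo against Young Sham alone, and Rspo3 +27507 passed only in an alternative fit of strength. Axin2 +190 and Fzd4 -315 lie at the start of their genes, and Lef1 -466 lies before a TSS inside its gene.
Rspo3 +24228, chr10:29511592-29511791: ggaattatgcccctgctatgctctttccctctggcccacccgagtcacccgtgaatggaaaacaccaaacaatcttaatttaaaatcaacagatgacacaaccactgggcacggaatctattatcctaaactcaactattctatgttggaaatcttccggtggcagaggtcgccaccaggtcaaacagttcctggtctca
Rspo3 +27507, chr10:29508293-29508492: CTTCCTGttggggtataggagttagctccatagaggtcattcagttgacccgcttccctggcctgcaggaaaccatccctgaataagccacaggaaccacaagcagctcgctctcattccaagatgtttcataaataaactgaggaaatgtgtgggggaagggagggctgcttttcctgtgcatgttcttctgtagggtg
Wnt11 -48013, chr7:98787064-98787263: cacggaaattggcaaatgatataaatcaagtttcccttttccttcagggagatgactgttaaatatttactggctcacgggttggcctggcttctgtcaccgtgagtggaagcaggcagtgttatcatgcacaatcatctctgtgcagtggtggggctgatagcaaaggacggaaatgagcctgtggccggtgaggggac
Fzd6 +17021, chr15:39023229-39023428: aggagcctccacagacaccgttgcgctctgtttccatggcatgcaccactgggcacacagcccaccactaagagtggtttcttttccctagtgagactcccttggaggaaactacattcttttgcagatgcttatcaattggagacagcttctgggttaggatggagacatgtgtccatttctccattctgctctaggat
Lef1 -164082, chr3:130946205-130946404: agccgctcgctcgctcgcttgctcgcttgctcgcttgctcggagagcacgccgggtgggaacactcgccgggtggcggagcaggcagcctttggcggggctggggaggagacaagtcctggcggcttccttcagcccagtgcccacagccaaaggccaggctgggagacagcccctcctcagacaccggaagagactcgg
Lef1 -466, chr3:131112306-131112505: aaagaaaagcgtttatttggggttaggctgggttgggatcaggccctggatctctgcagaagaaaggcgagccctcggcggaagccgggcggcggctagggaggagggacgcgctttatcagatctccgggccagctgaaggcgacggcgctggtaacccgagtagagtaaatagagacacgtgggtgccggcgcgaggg
Lrp6 -37, chr6:134567068-134567267: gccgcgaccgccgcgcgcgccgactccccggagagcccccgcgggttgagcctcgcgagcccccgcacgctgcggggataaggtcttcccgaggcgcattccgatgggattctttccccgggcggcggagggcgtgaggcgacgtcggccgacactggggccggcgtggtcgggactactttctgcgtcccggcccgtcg
Axin2 +190, chr11:108920240-108920439: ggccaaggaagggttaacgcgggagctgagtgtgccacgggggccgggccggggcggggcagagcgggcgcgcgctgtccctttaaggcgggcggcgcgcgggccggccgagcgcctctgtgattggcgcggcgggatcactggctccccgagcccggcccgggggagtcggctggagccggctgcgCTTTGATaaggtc
Fzd4 -315, chr7:89404190-89404389: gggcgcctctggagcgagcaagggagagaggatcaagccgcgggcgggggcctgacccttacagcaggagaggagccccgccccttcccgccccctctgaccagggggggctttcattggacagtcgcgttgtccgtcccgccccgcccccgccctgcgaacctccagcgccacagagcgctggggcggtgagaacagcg

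Within 200 bp at the summit, the TCF/LEF core stood in 3 of the 64 Wnt pathway regions (4.69%) and in 2.34% of all 47338 regions. The 3 were Axin2 +190, which holds the Axin2 TSS, and Tcf7l2 +65039 and Tcf7l2 +20336 in introns of Tcf7l2. The ETS core, bound by endothelial factors such as ERG, stood in 12 of the 64 (18.8%) and in 19.96% of all regions. Rspo3 +27507 held it, whereas Rspo3 +24228, Wnt11 -48013 and Fzd6 +17021 held neither core in this window. The 2 motifs do not overlap in letters, and a match is a description of the sequence only.

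Of the 64 regions, 8 (12.5%) lay in promoters, which reach from 1000 bp before a TSS to 100 bp after it, 3 in untranslated regions, 28 (43.8%) in introns and 25 (39.1%) in intergenic DNA, against 21.3% in promoters over all regions. A peak was called in all 18 samples at 14 of them (21.9%), against 36.8% of all regions. Strength is given as the percentile of a region's fold enrichment among the 17432 regions called in every sample, so that lists of different depth can be set side by side. The 14 regions called throughout, of which the strongest, Axin2 +91529, is in doubt for the reason given with Axin2, had median percentiles from 9.04 to 99.9 and median fragments at the summit from 20.5 to 608, and they included the promoters of Tcf7l2, Apcdd1, Lrp5, Lrp6 and Fzd6 and the start of Axin2. The others lacked a peak in at least 1 list.

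**Figure D1:**
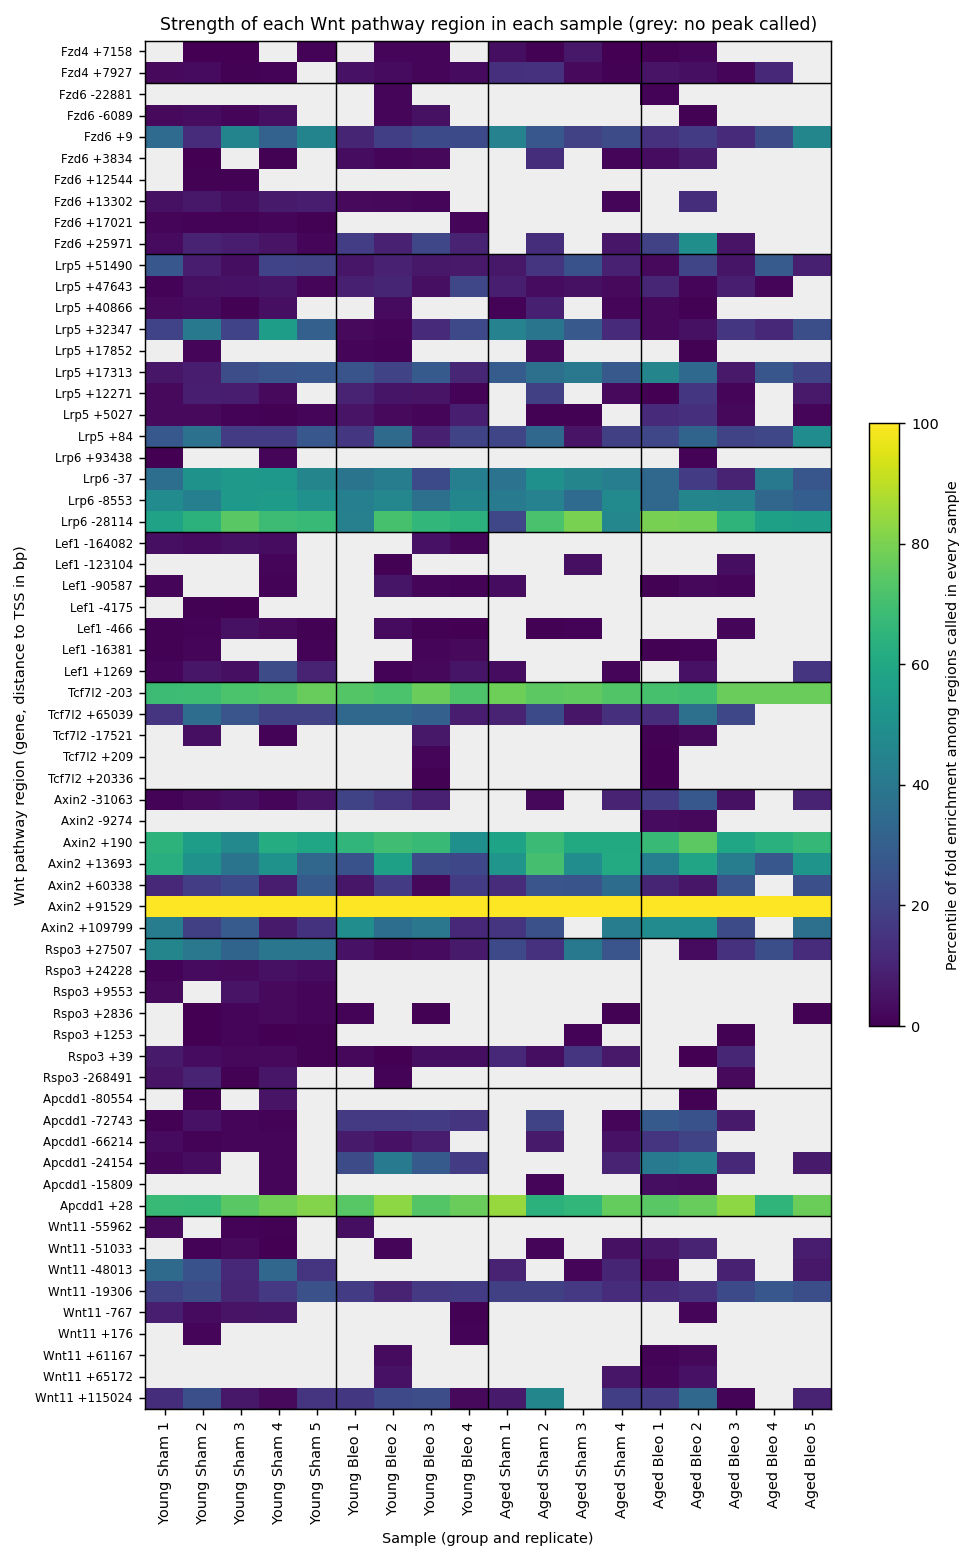
Percentile of fold enrichment (colour, 0 to 100) of the 64 Wnt pathway regions (rows, by gene and distance to the TSS in bp) in the 18 samples (columns), with grey where no peak was called. The rows of Tcf7l2 -203, Apcdd1 +28 and Axin2 +190 are bright in every sample, whereas Rspo3 +24228 and Rspo3 +9553 are coloured in Young Sham columns alone.

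The samples differed in depth. The lists held 21050 to 40883 peaks. The local background at peaks was recovered from the deposited fold enrichment and p-values. Its lowest value in each list ranged over the lists from 1.02 to 1.78 fragments. Young Sham lists held 61.7% to 77.7% of all regions, Young Bleo lists 69.9% to 80.2%, Aged Sham lists 52.6% to 65.5% and Aged Bleo lists 43.0% to 80.4%. Libraries were sequenced in 3 lanes: lane 8 held the 5 Young Sham mice and Young Bleo 4, lane 7 the other Young Bleo mice with Aged Sham 1 to 3, and lane 6 Aged Sham 4 with the Aged Bleo mice. No lane held a Young Sham and an aged mouse, so for those comparisons age and lane cannot be told apart. Promoter peaks checked the cell type: Cdh5, Kdr, Tie1, Cldn5 and Erg had one in 18 of 18 samples and Pecam1, which encodes CD31, in 17, while Egfl7 had one in 2 and Tek and Emcn had none. None of the 6 leukocyte and 5 epithelial marker promoters had a peak; of the fibroblast and mural markers, Pdgfra and Myh11 had one in every sample and the others in none, and of the lymphatic markers Lyve1 had one in 7 samples. The endothelial list of 9 genes had 6 promoters with a peak in each Young Sham and Aged Sham mouse, 6 or 7 in Young Bleo and 5 to 7 in Aged Bleo.

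The mean share of the Wnt pathway regions with a peak was highest in Young Sham ECs. Its mean was 72.2% ± 10.9 (SD, n = 5) in Young Sham, 60.5% ± 7.80 (n = 4) in Young Bleo, 48.8% ± 8.69 (n = 4) in Aged Sham and 51.9% ± 18.9 (n = 5) in Aged Bleo. Over all regions the same means were 71.9%, 75.1%, 59.2% and 62.9%. In Young Sham the Wnt share was close to that of all regions, and in the other groups it lay below it. Of the 64 regions, 9 (14.1%) had a peak in fewer than 2 lists outside Young Sham, against 7.19% of all regions, which lowers the share of the other groups by construction. Over the regions without these, the Wnt means were 74.5% ± 10.4 (SD, n = 5) in Young Sham, 69.1% ± 10.6 (n = 4) in Young Bleo, 56.8% ± 10.1 (n = 4) in Aged Sham and 59.6% ± 20.9 (n = 5) in Aged Bleo. The means of all such regions were 74.2%, 80.3%, 63.5% and 67.5%, and each mouse outside Young Sham still had the smaller share at the Wnt regions. The plot of shares shows this mouse by mouse: each of the 4 Young Bleo mice was called in a smaller share of Wnt regions (53.1% to 68.8%) than of all regions (69.9% to 80.2%), and so were Young Sham 1 (70.3% against 77.7%) and Young Sham 5 (54.7% against 61.7%). As these are bulk profiles, fewer cells with a region open and less opening per cell cannot be told apart.

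**Figure D2:**
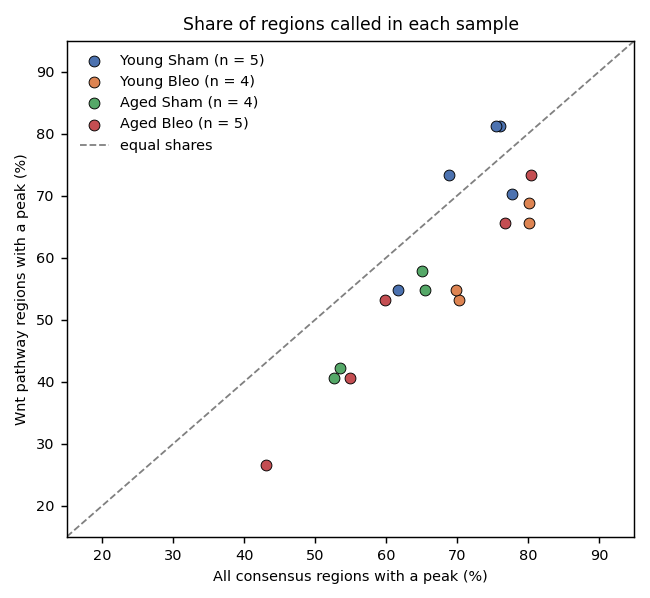
Share of the 64 Wnt pathway regions with a peak (vertical axis, %) against that of all 47338 regions (horizontal axis, %), 1 point per mouse, with a dashed line where the shares are equal. Of the Young Sham mice 3 lie above the line, and every mouse of the other groups lies below it.

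For each region, the number of mice with a peak was compared between groups by Fisher's exact test, two-sided, and regions with an unadjusted p of 0.05 or less are described. In Aged Sham against Young Sham, 8 Wnt regions were called less often (12.5%, against 4.90% of all regions) and 0 more often (0.264% of all regions). In Young Bleo against Young Sham, 5 were called less often (7.81%, against 1.96%) and 0 more often, although 3.98% of all regions were called more often after injury. Aged Bleo against Young Sham gave 6 regions called less often (9.38%, against 3.01%) and 0 called more often (0.201%). Between Aged Bleo and Aged Sham no Wnt region passed in either direction (0.410% of all regions less often, 0.475% more often), nor between Aged Bleo and Young Bleo (2.44% and 0.123%). The 3 comparisons that gave calls share the Young Sham mice. No region, of these or of all 47338, had a Benjamini-Hochberg adjusted p of 0.05 or less: the smallest were 0.786, 0.535 and 1.00 in the 3 comparisons with Young Sham, since neither 5 against 4 mice nor 5 against 5 can give a p below 0.00794.

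**Figure D3:**
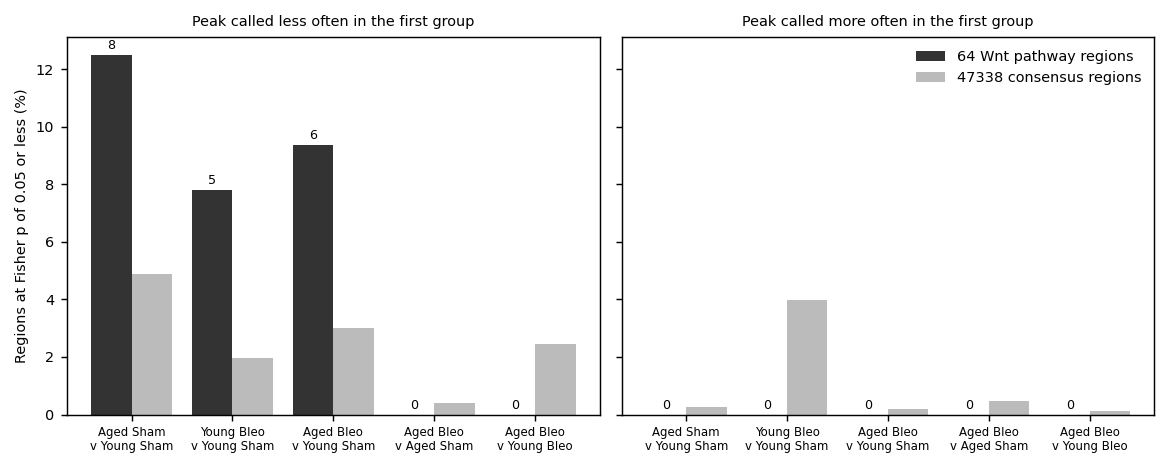
Share of regions (vertical axis, %) whose peak was called less often (left) or more often (right) in the first group of each comparison at a Fisher p of 0.05 or less, for the 64 Wnt pathway regions (dark bars, with the number of regions above) and for all 47338 regions (light bars). The dark bars stand above the light ones in the 3 comparisons with Young Sham on the left, and on the right every dark bar is at 0.

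These calls fell on 11 regions (17.2% of the 64) of 4 genes, Rspo3, Fzd6, Lef1 and Wnt11. By comparison, 12.5% of all regions were called in at least 1 of the 5 comparisons in either direction. None of the 11 lay at Fzd4, Lrp5, Lrp6, Tcf7l2, Axin2 or Apcdd1. Of the 11, 3 (Rspo3 +24228, Rspo3 +9553 and Fzd6 +17021) had a peak in fewer than 2 lists outside Young Sham, so they were kept as regions through the group where they were high and their p-values are no evidence of a difference. Over the 55 Wnt regions with a peak in at least 2 lists outside Young Sham, 5 were called less often in Aged Sham (9.09%, against 4.47% of all such regions), 2 in Young Bleo (3.64%, against 1.38%) and 3 in Aged Bleo (5.45%, against 2.37%), and 0 more often. The 11 were weak, as called regions were in general (median percentile 2.60 over all of them), with median percentiles from 0.558 to 10.4 and median fragments from 13 to 25 at the summit. When each list was reduced to its strongest 21050 peaks, the size of the smallest list, Wnt11 -48013 alone of the 11 still had a peak in 2 lists and differed. Of the 33 Wnt regions that this reduction left, 3 were then called less often and 2 more often in Young Bleo than in Young Sham (3.19% and 3.66% of all regions), 1 less and 1 more often in Aged Bleo (1.97% and 1.09%), and 0 in Aged Sham (1.56% and 1.36%). The aged lists were shorter than those of Young Sham (means of 28882 peaks in Aged Sham and 31093 in Aged Bleo, against 35239), whereas the Young Bleo lists were not (36699), and the part of depth in these calls was not tested.

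Rspo3, the R-spondin that raises Wnt receptor levels, had more regions with a peak in Young Sham than in the other groups. Its 7 regions gave 31 of 35 possible calls in Young Sham (5 to 7 per mouse), 11 of 28 in Young Bleo (2 to 3 per mouse), 10 of 28 in Aged Sham (2 to 3 per mouse) and 9 of 35 in Aged Bleo (0 to 4 per mouse). These counts hold 2 regions, Rspo3 +24228 and Rspo3 +9553, that were kept through the Young Sham lists alone. Over the other 5 regions, Young Sham gave 22 of 25 calls (3 to 5 per mouse), Young Bleo 11 of 20 (2 to 3), Aged Sham 10 of 20 (2 to 3) and Aged Bleo 9 of 25 (0 to 4), and the groups overlapped. The Rspo3 gene spans chr10:29453106-29535867 on the minus strand, and 5 of its regions lie in its introns.

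Rspo3 +24228 (intron, chr10:29511428-29511850) had a peak in 5 of 5 Young Sham mice and in 0 of 4 Young Bleo, 0 of 4 Aged Sham and 0 of 5 Aged Bleo mice. As all its peaks were Young Sham peaks, it entered the regions through that group alone, and its difference is a description, with no test. The Young Sham peaks rested on 21, 26, 25, 25 and 21 fragments and stood at percentiles 0.878, 3.11, 2.68, 4.51 and 3.28. Young Bleo 4, sequenced in the same lane as the Young Sham mice, had no peak there. Rspo3 +9553, also in an intron, had a peak in 4 of 5 Young Sham mice (14, 18, 15 and 12 fragments) and in none of the other 13, so the same holds for it. Peaks in Young Sham alone were found at 4 of the 64 regions (6.25%) and at 2.47% of all regions. Rspo3 +1253 was called in 4 Young Sham, 1 Aged Sham, 0 Young Bleo and 1 Aged Bleo mice (exact p = 0.0476 for Young Bleo). Rspo3 -268491, far upstream, was called in 4, 0, 1 and 1 of the same groups (exact p = 0.0476 for Aged Sham). The Rspo3 -268491 call did not pass at a −log10 q of at least 5, at a fold enrichment of at least 5 or with peaks over at least 50% of the region (exact p = 0.167 in each). Nor did that of Rspo3 +1253 at the −log10 q limit (exact p = 0.444).

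The strongest region of the gene was Rspo3 +27507 (intron, chr10:29508121-29508599), and it had a peak in every mouse but Aged Bleo 1. Its percentiles were 45.4, 40.2, 32.4, 39.2 and 39.1 in Young Sham and 4.78, 2.25, 2.95 and 7.17 in Young Bleo. Aged Sham mice had 21.9, 14.1, 40.4 and 26.2, and the 4 Aged Bleo mice with a peak had 2.78, 14.3, 24 and 12.6. Young Sham and Young Bleo did not overlap, and Young Bleo 4, of the Young Sham lane, lay at 7.17 on 20 fragments against 44 to 61 fragments in Young Sham. The test of strength was limited to regions called in all 18 samples, which this one is not; in the alternative fit over all 47338 regions, in which an absent peak took the percentile 0, it was lower in Young Bleo than in Young Sham (-34.96 points, SE 5.03, limma adjusted p = 0.00328) and lower in Aged Bleo (-28.51 points, SE 4.74, adjusted p = 0.00487), but did not pass in Aged Sham (-13.61 points, SE 5.03, adjusted p = 0.246). With equal list sizes Rspo3 +27507 was called in 5 Young Sham and 0 Young Bleo mice (exact p = 0.00794). With peaks over at least 50% of the region it was called in 5 Young Sham, 4 Aged Sham and 1 Aged Bleo mice. Aged Bleo then passed against either sham group (exact p = 0.0476 in each). The Rspo3 promoter, Rspo3 +39, was called in 5 Young Sham, 4 Aged Sham, 4 Young Bleo and 2 Aged Bleo mice, and no comparison passed in the main test. At a −log10 q of at least 5, or with peaks over at least 50% of the region, it was called in 5 Young Sham, 4 Aged Sham and 1 Aged Bleo mice (exact p = 0.0476 for Aged Bleo against either sham group).

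**Figure D4:**
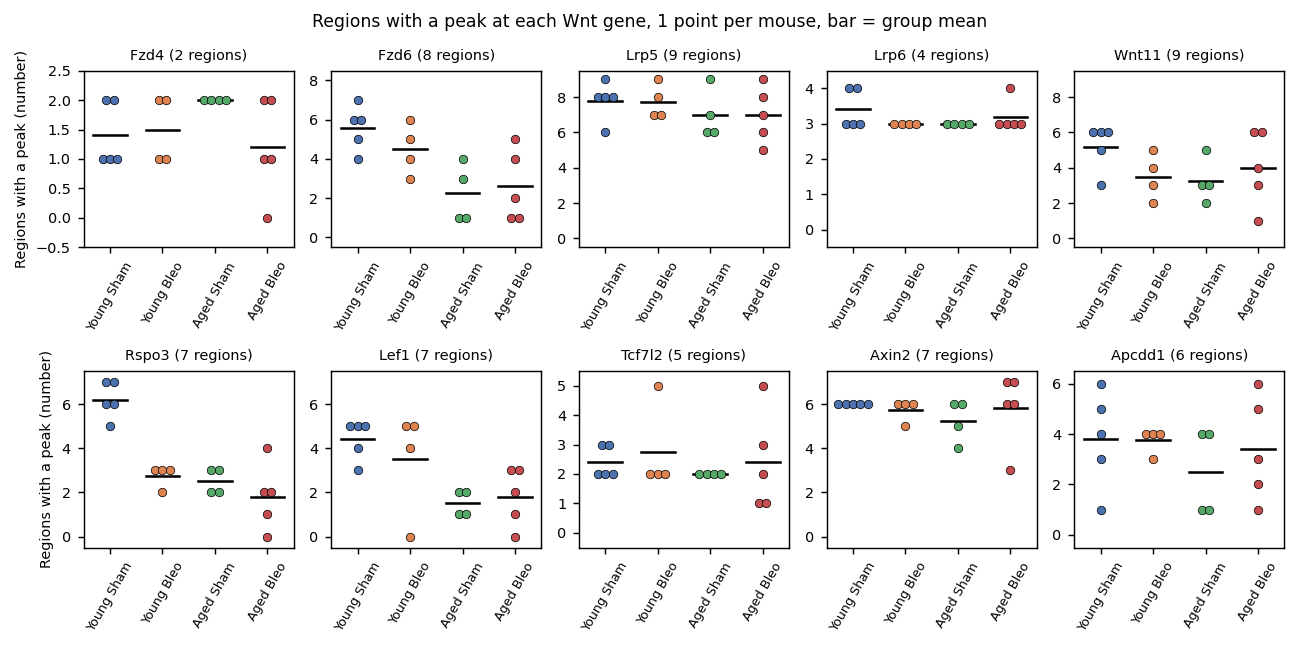
Number of regions with a peak (vertical axis) in each mouse (points) at each of the 10 Wnt genes, by group, with the group mean as a bar. At Rspo3 the 5 Young Sham mice sit at 5 to 7 regions and all other mice at 4 or fewer, with 2 regions counted that were kept through Young Sham alone; at Axin2 and Lrp5 the groups overlap.

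Wnt11, a ligand best known for signaling without β-catenin, gave 26 of 45 possible calls in Young Sham, 14 of 36 in Young Bleo, 13 of 36 in Aged Sham and 20 of 45 in Aged Bleo. Its 9 regions include 3 in introns of other transcripts beyond the end of the gene, assigned to Wnt11 by nearest TSS. Wnt11 -48013 (intergenic, chr7:98786850-98787348) was called less often in Young Bleo than in Young Sham. It was called in 5 of 5 Young Sham and 0 of 4 Young Bleo mice (exact p = 0.00794), and in 3 of 4 Aged Sham and 3 of 5 Aged Bleo mice. With peaks over at least 50% of the region, the aged groups passed too. Then 5 Young Sham, 1 Aged Sham (exact p = 0.0476) and 0 Aged Bleo mice (exact p = 0.00794) had the peak. Its percentiles in Young Sham were 34.4, 25, 11.7, 32.9 and 15.3; those in Aged Sham were 9.97, 1.87 and 10.4, and those in Aged Bleo 2.66, 9.11 and 6.40. All Young Sham mice lay above all mice of the other groups. Of the 11 regions it was the only one that still differed with equal list sizes, when it was called in 5 Young Sham and 0 Young Bleo mice (exact p = 0.00794) and in 1 Aged Bleo mouse (exact p = 0.0476). In the fit with absent peaks at 0 it was lower than in Young Sham both in Young Bleo (-23.85 points, SE 4.16, limma adjusted p = 0.00864) and in Aged Bleo (-20.22 points, SE 3.92, adjusted p = 0.0105). The Aged Sham difference was of like size but did not pass (-18.30 points, SE 4.16, adjusted p = 0.0550). Wnt11 -767 (chr7:98837934-98838222) lies at the promoter of a TSS inside the gene, whose first TSS is at 98835112. Wnt11 -767 was called in 4 Young Sham, 0 Aged Sham, 1 Young Bleo and 1 Aged Bleo mice (exact p = 0.0476 for Aged Sham). It also passed in Young Bleo at a −log10 q or a fold enrichment of at least 5 (4 against 0 mice) and in Aged Bleo with peaks over at least 50% of the region (4 against 0), each at an exact p of 0.0476. With absent peaks at percentile 0 its strength was lower in Aged Bleo (-4.14 points, SE 1.11, limma adjusted p = 0.0473). Wnt11 -19306, the strongest region of the gene called in every sample, stood at a median percentile of 17.7 and did not pass any test.

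Of the Frizzled receptors, Fzd6, which acts mainly in the branch without β-catenin, had fewer peaks in aged mice, as did all regions. Its 8 regions gave 28 of 40 calls in Young Sham (4 to 7 per mouse) and 18 of 32 in Young Bleo (3 to 6), and 9 of 32 in Aged Sham (1 to 4) and 13 of 40 in Aged Bleo (1 to 5), so that the groups overlapped. Fzd6 +17021 (intron, chr15:39023160-39023547) was called in 5 Young Sham mice, on 20, 19, 17, 17 and 10 fragments, in 1 Young Bleo mouse (Young Bleo 4, 14 fragments) and in no aged mouse. It too would not have been a region without the Young Sham lists, so this is a description. The only Young Bleo mouse with this peak was the one sequenced in the lane of the Young Sham mice. Fzd6 +13302 was called in 5 Young Sham, 1 Aged Sham, 3 Young Bleo and 1 Aged Bleo mice (exact p = 0.0476 for both aged groups), and Fzd6 -6089 in 4, 0, 2 and 1 of the same groups (exact p = 0.0476 for Aged Sham). The promoter Fzd6 +9 had a peak in every mouse, at a median percentile of 22.6 and over a wide range from 10.2 to 45.9.

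Fzd4, the receptor for norrin in retinal vessels, had 2 regions by the rule, both downstream of the gene and weak: Fzd4 +7158 was called in 11 mice and Fzd4 +7927 in 16. The region over the start of Fzd4, Fzd4 -315 (chr7:89403409-89404692), fell outside the rule because the TSS of Tmem135 lies nearer to its midpoint. It was called in every mouse, on 184 to 462 fragments (median 346), and its difference in strength between Aged Bleo and Young Sham did not pass (3.42 points, SE 6.69, limma adjusted p = 0.787).

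In the main tests no region of the coreceptors passed in presence, and Lrp6 was the only member whose regions passed in strength. In other settings 2 Lrp5 regions passed in presence: Lrp5 +5027 at a −log10 q of at least 5 (5 of 5 Young Sham and 1 of 4 Aged Sham mice, exact p = 0.0476) and Lrp5 +32347 with equal list sizes (5 of 5 Young Sham and 1 of 4 Young Bleo mice, exact p = 0.0476). Lrp5 gave 39 of 45 calls in Young Sham, 31 of 36 in Young Bleo, 28 of 36 in Aged Sham and 35 of 45 in Aged Bleo, and 3 of the 4 Lrp6 regions were called in every mouse. Lrp6 -37, its promoter (chr6:134566425-134567475), stood at percentiles 36.1, 51.1, 54.0, 53.5 and 45.5 in Young Sham and 33.8, 17.8, 9.45, 40.5 and 26.6 in Aged Bleo. Only Aged Bleo 4 (40.5) reached into the Young Sham range. The difference was -22.40 points (SE 5.56, limma adjusted p = 0.0203). Young Bleo mice stood at 38.3, 42.2, 22.5 and 43.3, of which 22.5 alone lay below the Young Sham range. Aged Sham mice stood at 38.1, 50.1, 45.7 and 42.8, all within it. Neither passed against Young Sham (-11.47 points, SE 5.90, adjusted p = 0.336, and -3.88 points, SE 5.90, adjusted p = 0.811). With ranking by −log10 p, the Young Bleo difference passed (-17.42 points, SE 5.28, limma adjusted p = 0.0437), where 11.8% of all regions did. Aged Bleo against Aged Sham gave -18.52 points (SE 5.90, adjusted p = 0.138).

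Lrp6 -8553, 8553 bp upstream of Lrp6 in intergenic DNA, was the other region that passed. Its percentiles were 48.3, 43.0, 53.6, 55.3 and 50.5 in Young Sham and 33.8, 45.6, 44.8, 32.9 and 29.8 in Aged Bleo, a difference of -12.74 points (SE 3.56, limma adjusted p = 0.0330), with Young Sham 2 within the range of Aged Bleo. Aged Sham mice stood at 40.9, 44.4, 35.0 and 47.9 (-8.07 points from Young Sham, SE 3.78, limma adjusted p = 0.310) and Young Bleo mice at 43.2, 46.4, 36.9 and 45.9 (-7.02 points, SE 3.78, adjusted p = 0.360). By rank of −log10 p the Aged Sham difference passed (-13.97 points, SE 3.54, limma adjusted p = 0.0358), where 4.84% of all regions did, and Aged Bleo did not differ from Aged Sham beyond the error in the main test (-4.68 points, SE 3.78, adjusted p = 0.590). Lrp6 -28114, further upstream and stronger, did not pass (0.62 points, SE 9.0, adjusted p = 0.976). Lrp6 -37 no longer passed without Young Sham 2 or without Young Sham 4 (-21.6 and -21.0 points), and Lrp6 -8553 no longer passed when any of Young Sham 1, 3, 4 and 5 or Aged Bleo 1, 4 and 5 was left out (-13.2 to -10.9 points). Of 6 other settings Lrp6 -37 passed in all but the one with the sequencing lane, whereas Lrp6 -8553 passed in 1, ranking by −log10 p (limma adjusted p = 0.0114), where 24.9% of all regions passed. It did not pass with percentiles among all peaks of each list (-13.6 points, adjusted p = 0.0912), normal scores of the ranks (0.0823), the replicate number as a block (0.0522) or absent peaks at percentile 0 (0.0514). With the sequencing lane in the fit none of the 17432 regions tested passed, and the estimates were -11.6 points for Lrp6 -37 (adjusted p = 0.878) and -16.7 points for Lrp6 -8553 (adjusted p = 0.680). Within lane 6, Aged Sham 4 stood at 42.8 for Lrp6 -37, above all 5 Aged Bleo mice, and at 47.9 for Lrp6 -8553, also above them. The strongest region of Lrp5, Lrp5 +17313, gave differences from Young Sham of 15.25 points in Aged Sham (SE 6.75, limma adjusted p = 0.282), 8.54 in Aged Bleo (adjusted p = 0.411) and 3.17 in Young Bleo (adjusted p = 0.884), and none passed. Nor did the promoter Lrp5 +84 (-5.78, 3.38 and -5.51 points, limma adjusted p = 0.742, 0.780 and 0.764). Lrp5 +32347, in an intron of Lrp5, gave a difference from Young Sham of -21.79 points in Aged Bleo (SE 7.31, limma adjusted p = 0.0673) and of -23.93 points in Young Bleo (SE 7.75, adjusted p = 0.114), and neither passed. With percentiles taken among all peaks of each list, the Aged Bleo difference passed (-30.23 points, SE 8.18, limma adjusted p = 0.0361). In that setting 7.73% of all regions passed in either direction. It also passed with normal scores of the ranks (-0.87, SE 0.28, limma adjusted p = 0.0498), where 10.1% did. Its Young Bleo percentiles of 2.73, 1.60, 11.8 and 21.9 overlapped the Young Sham ones of 20, 40.5, 20.3, 55.7 and 30.5 at a single mouse, Young Bleo 4.

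Across the 14 Wnt regions tested for strength, these 2 were lower in Aged Bleo than in Young Sham and 0 were higher, against 4.81% of the 17432 regions lower and 5.75% higher. No Wnt region passed in Aged Sham against Young Sham (1.21% of all regions in either direction), Young Bleo against Young Sham (2.75%), Aged Bleo against Aged Sham (0.344%) or Aged Bleo against Young Bleo (0.155%). The test of whether the response to bleomycin differed with age also passed at none of the 14 (smallest limma adjusted p = 0.672), and at 1 of all 17432 regions.

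**Figure D5:**
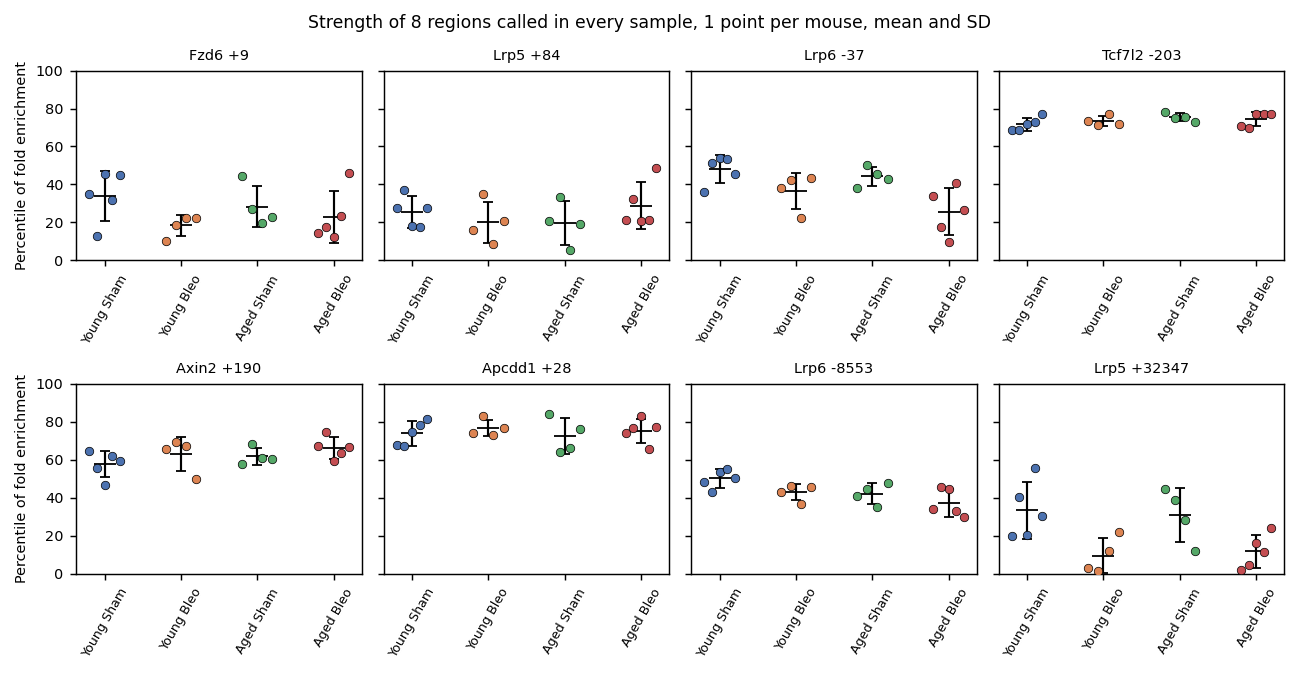
Percentile of fold enrichment (vertical axis) of 8 regions called in every sample, 1 point per mouse by group, with mean and SD as the bar. Lrp6 -37 and Lrp6 -8553 lie lower in Aged Bleo than in Young Sham, whereas Tcf7l2 -203, Axin2 +190 and Apcdd1 +28 overlap in all 4 groups.

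Lef1 and Tcf7l2 encode the factors that bring β-catenin to DNA, and their loci differed in kind. Lef1 had no region called in every mouse, and its 7 regions gave 22 of 35 calls in Young Sham (3 to 5 per mouse), 14 of 28 in Young Bleo (0 to 5), 6 of 28 in Aged Sham (1 to 2) and 9 of 35 in Aged Bleo (0 to 3). Lef1 -466 (chr3:131112088-131112562), at the promoter of a TSS inside the gene, whose first TSS is at 131110297, was called in 5 Young Sham, 2 Aged Sham, 3 Young Bleo and 1 Aged Bleo mice (exact p = 0.0476 for Aged Bleo), on 9 to 24 fragments. That call did not pass at a −log10 q of at least 5 (exact p = 0.206), where 4 Young Sham and 0 Aged Sham mice had the peak (exact p = 0.0476), at a fold enrichment of at least 5 (0.524) or with peaks over at least 50% of the region (0.206). Lef1 -164082 (intergenic) was called in 4 Young Sham and 2 Young Bleo mice and in no aged mouse (exact p = 0.0476 for both aged groups). Lef1 +1269, the strongest region of the gene, was called in 5 Young Sham, 2 Aged Sham, 3 Young Bleo and 2 Aged Bleo mice on 11 to 30 fragments, and passed in no comparison. At a −log10 q or a fold enrichment of at least 5 it was called in 1 Aged Sham mouse (exact p = 0.0476 against Young Sham). At Tcf7l2, by contrast, the promoter Tcf7l2 -203 (chr19:55741252-55741962) was called in every mouse at percentiles from 68.6 to 78.0, on 93 to 264 fragments. Its difference between Aged Bleo and Young Sham was 2.60 points (SE 2.22, limma adjusted p = 0.480). Tcf7l2 +65039, which holds a TCF/LEF core, was called in 5 Young Sham, 4 Aged Sham, 4 Young Bleo and 3 Aged Bleo mice.

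Axin2, the negative regulator that is itself a target of β-catenin, gave similar numbers of calls in all groups: 30 of 35 in Young Sham, 23 of 28 in Young Bleo, 21 of 28 in Aged Sham and 29 of 35 in Aged Bleo. Axin2 +190 (chr11:108920113-108920964), over the start of the gene and with a TCF/LEF core at its summit, stood at 64.8, 55.8, 46.9, 62.1 and 59.3 in Young Sham and 67.3, 74.9, 59.1, 63.4 and 66.6 in Aged Bleo. The groups overlapped, and the difference of 8.47 points (SE 4.11, limma adjusted p = 0.194) did not pass. Axin2 +91529, 91529 bp downstream of the TSS in intergenic DNA, was the strongest of the 64 regions, at percentiles from 99.8 to 99.9. Its local background had a median of 15.6 fragments (10.2 to 46.5), against 1.78 (1.02 to 11.4) over the calls of the other Wnt regions. Its fragments at the summit ran from 361 to 1869 while its fold enrichment stayed between 31.9 and 40.8. Whether these fragments come from a repeated sequence, such as ribosomal DNA, that was mapped to this place was not tested. Its values are not read as a measure of Axin2 or of accessibility at this locus.

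Apcdd1, a membrane-bound inhibitor of Wnt signaling found in brain vessels, had a strong promoter region, Apcdd1 +28, called in every mouse at percentiles from 64.1 to 84.4. Its difference between Aged Bleo and Young Sham did not pass (1.51 points, SE 4.20, limma adjusted p = 0.856). The upstream region Apcdd1 -24154 went the other way from Rspo3. It was called in 3 of 5 Young Sham mice at percentiles of 1.72, 3.15 and 1.41, and in 4 of 4 Young Bleo mice at 22.9, 41.6, 28.5 and 17.4. Aged Sham had it in 1 mouse (9.48) and Aged Bleo in 4 (41.7, 44.4, 11.5 and 7.32). Presence did not differ by the main test; with equal list sizes it was called in 0 of 5 Young Sham and 4 of 4 Young Bleo mice (exact p = 0.00794), and so was its neighbour Apcdd1 -72743 (exact p = 0.00794). Apcdd1 -24154 was then also called in 4 of 5 Aged Bleo mice (exact p = 0.0476 against Young Sham). With peaks over at least 50% of the region, Apcdd1 -72743 was called in 1 Young Sham and 4 Young Bleo mice (exact p = 0.0476). The fit with absent peaks at 0 gave Apcdd1 -24154 a difference of 26.36 points in Young Bleo from Young Sham that did not pass (SE 7.95, adjusted p = 0.0864).

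The other genes of the pathway, 71 in a list of ligands, receptors, inhibitors and intracellular components, had 225 regions at 61 of the genes. In Aged Sham against Young Sham 9 of these were called less often (4.00%) and 0 more often, close to the 4.90% of all regions. In Young Bleo against Young Sham 2 were called less often (0.889%, against 1.96% of all regions) and 14 more often (6.22%, against 3.98%). In the main test none of the 64 regions at the 10 genes was called more often there. Aged Bleo against Young Sham gave 6 called less often (2.67%, against 3.01% of all regions) and 0 more often (0.201% of all regions). Aged Bleo against Young Bleo gave 7 called less often (3.11%, against 2.44% of all regions) and 0 more often (0.123%). Aged Bleo against Aged Sham gave 2 less and 2 more often (0.889% each, against 0.410% and 0.475%). The difference between this list and the 10 genes was not tested.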

How the data were processed

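Omni ATAC-seq libraries of sorted lung ECs from 18 mice were sequenced by the authors, who mapped the reads to mm10 with BWA, marked duplicates and called peaks per sample with MACS2 at a false discovery rate of 1%; the labels name BWA, MACS2 and mm10. Each deposited peak list gives the interval, the fold enrichment over the local background (a ratio), the −log10 p-value, the −log10 q-value and the summit offset. The deposited lists also hold a display score, which was not used here.

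Peaks of all lists were merged into consensus regions (19 mitochondrial peaks in 5 lists were left out) and assigned to RefSeq genes of GRCm38.p6 with 45756 transcripts. Fragments at the summit were recovered from the deposited fold enrichment and −log10 p-value by the MACS2 formula and came out whole, within 0.05, for 99.98% to 100% of peaks; 31 peaks could not be solved. Presence was compared with Fisher's exact test (scipy 1.17.1) and strength with limma 3.58.1 in R 4.3.3 on the percentiles of the 17432 regions called in every sample, each with Benjamini-Hochberg adjustment over all regions tested. Peak presence has no depth in reads, so no interval was given for it. Named regions were, for each gene, its promoter, its strongest region and every region at a Fisher p or a limma adjusted p of 0.05 or less. Beyond this rule, Lrp5 +32347, Lrp5 +5027, Axin2 +190, Fzd4 -315 and Fzd4 +7158 were described after their values were seen. So were Fzd6 +3834, Tcf7l2 +65039, Apcdd1 -24154 and Apcdd1 -72743. The 10 genes, the lists and the tests were chosen with earlier results of these data known. The sequencing lane was read from the names of the deposited lists. The tests were checked on simulated data. Replicates were separate mice.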

Additional observations from a re-analysis of the deposited data

Results flagged for a closer look

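In the Young Bleo group, Wnt11 -19306 had a percentile of 9.99 in Young Bleo 2, while the other mice of the group lay between 16.6 and 17.9, a gap larger than Dixon's 95% limit for 4 samples. Of 62 groups of values examined this way, 1 stood out, and chance gives about 1 in 20.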

How the results depend on the processing

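With the 21050 strongest peaks of each list, Aged Sham against Young Sham gave 0 Wnt regions called differently and Aged Bleo against Young Sham 2; of the 19 calls of a region in a comparison, 1 stayed (Wnt11 -48013 in Young Bleo), whereas 15 stayed at a −log10 q of at least 5, 13 at a fold enrichment of at least 5 and 14 with peaks covering at least 50% of a region. Calls of Rspo3 +24228 and Rspo3 +9553 are among those that stayed at the −log10 q, fold enrichment and coverage limits. Calls of Fzd6 +17021 are among those that stayed at the −log10 q limit. As these regions entered through the Young Sham lists, such calls are no evidence of a difference. With a peak in at least 2 lists outside Young Sham, a setting added after the data were seen, Aged Sham gave 5, Young Bleo 2 and Aged Bleo 3 against Young Sham. With the coverage of 50%, Aged Bleo against Young Sham gave 10, all called less often (5.80% of all regions, 3.01% without this limit), and Aged Bleo against Aged Sham 2 (0.910%, against 0.410%). At a −log10 q of at least 5, or a fold enrichment of at least 5, Aged Bleo against Aged Sham gave 1 each, Rspo3 +39 (0.436% and 0.465% of all regions less often). Leaving out each mouse gave 2 to 6 regions for Aged Sham against Young Sham (6 without Young Sham 5, 2 or 3 without any other mouse of these groups). Without Young Sham 1, 3 or 4, or Aged Sham 1, 2 or 3, the only regions left were Fzd6 +17021 and Rspo3 +24228. Without Young Sham 2, Rspo3 +9553 was left as well. All these entered through the Young Sham lists and are no evidence of a difference. Young Bleo against Young Sham gave 2 to 3 (every mouse) and Aged Bleo against Young Sham 6 to 10 (10 without Young Sham 5 or Aged Bleo 2). Rspo3 +24228 is among these in every run. With 4 mice against 4 the smallest p is 0.0286. For strength, absent peaks at percentile 0 gave, against Young Sham, 5 changed regions of 64 for Aged Bleo, 3 for Young Bleo and 1 for Aged Sham (4.61%, 3.15% and 0.782% of all 47338 regions), each counting Rspo3 +24228, which had to differ since its peaks were all in Young Sham and which is the whole Aged Sham count, and ranking by −log10 p gave 1 of 14 in Aged Sham and 1 in Young Bleo (4.84% and 11.8% of all 17432). In Aged Bleo against Young Sham, leaving out each mouse gave 0 to 3 regions: 0 without Young Sham 4, 1 without any other Young Sham mouse or without Aged Bleo 1, 4 or 5. With the sequencing lane in the fit it gave 0. The causes of these changes were not tested.

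The replicate numbers did not pair the mice: same-numbered samples correlated at a mean of 0.0295 (-0.193 to 0.335), other samples at -0.00765, and 4 of 18 samples correlated best with their own number. The replicate block left 1 region changed in strength in Aged Bleo against Young Sham, Lrp6 -37. A block on presence cannot pass, as 5 pairs give no p below 0.0625, and was not run.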
